A study of Mus musculus with 6 samples.

Results

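Solute carriers are membrane proteins that move amino acids, sugars, peptides, metals, nucleosides, organic acids and ions across the plasma membrane and the membranes of lysosomes, mitochondria and the secretory pathway. They are driven by ion gradients, by exchange or by diffusion rather than by ATP, and are named by family number and member (Slc7a5 is member 5 of family 7). T cells that are activated raise their uptake of amino acids and glucose, and the transporters of T cells and of phagocytes differ in part, since phagocytes recycle metals, heme, peptides and nucleosides from digested material in lysosomes. Members were chosen by symbol, with earlier results of these data known. They are genes with a symbol of the form Slc, number, a, number. For each gene 1 probe set was kept, the one whose mean over the 6 samples was highest. Slc40a1, Slc11a1, Slc2a1, Slc2a3, Slc16a3, Slc4a1 and Slc7a2 were left out by the rule. This gave 231 Slc genes in 47 families among 12393 genes measured, read by 361 Slc probe sets.

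RNA was measured on Affymetrix Mouse430a arrays in CD4+CD25+ T cells, a sorted population in which regulatory T cells are enriched, from mice on the C57BL6 background. Wild type samples (3) were compared with 3 samples of genotype HDAC3-fl/fl_FOXP3cre, in which a floxed gene of the histone deacetylase HDAC3 is cut by a Cre recombinase named for Foxp3, the lineage factor of regulatory T cells; these are called Hdac3 deleted. The labels do not give ages or say whether the wild type mice carried Cre. The titles and genotype of the Hdac3 deleted samples name HDAC3, but their source name reads HDAC11 and their description HDACII. The labels do not tie the samples to separate animals, so a p-value here reflects no more than how these samples scatter, which could be technical scatter. Values are log2 after robust multiarray average (RMA) normalization by the authors, printed with their SD over the 3 samples of a group, and differences are Hdac3 deleted minus wild type.

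Values were compared with a background range of 2.37 to 5.16 log2, spanned by 27 bacterial control probe sets. A fold is written as at least when 1 group lay in that range, measured from its top. Genes are called when the limma adjusted p (Benjamini-Hochberg over 12393 genes) was below 0.05 and the difference at least 2-fold, and only called genes are said to rise or fall. Hdac3 itself was lower, but by less than 2-fold, at 8.49 on average against 9.04 in wild type (limma adjusted p = 7.45e-05). The Foxp3 probe set lay in background in both groups. Il2ra, which encodes CD25, was at 9.25 in wild type and 9.96 after deletion. Markers of other cells moved with the genotype in every sample, and in the marker counts below higher and lower mean called. The summed linear level of 14 macrophage markers was 488 to 505 in wild type against 82398 to 83551 with Hdac3 deleted, with 13 higher and Vsig4 in background. For 13 neutrophil markers it was 373 to 505 and 38478 to 39053, with 12 higher. All 4 CD3 complex genes were lower, with sums of 21201 to 22650 and 8347 to 8491. Of 6 regulatory T cell markers 2 were called lower and none higher, at 9958 to 10257 and 6246 to 6416. Among the uncalled ones, Il2ra (0.71) and Tnfrsf18 (-0.86) passed the adjusted p but not 2-fold. The sums went from 549 to 572 up to 1991 to 2043 for 6 erythroid markers (2 higher; Hba-a1, Klf1 and Epb42 in background), from 365 to 392 up to 1047 to 1131 for 5 B cell markers (2 higher; Ms4a1 and Pax5 in background), and from 343 to 396 up to 8165 to 8460 for 4 natural killer markers (3 higher; Ncr1 in background). With Hdac3 deleted a single gene made up most of each of these sums. It was Tfrc (10.71) for the erythroid, Cd22 (9.43) for the B cell and Tyrobp (12.84) for the natural killer list. These sums therefore do not speak for their lists as a whole. The part of these cells in the Slc differences was not tested. In such bulk samples fewer cells of a type and less RNA per cell cannot be told apart.

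Of the 231 Slc genes 26 rose and 6 fell, which is 13.9% called against 13.5% of all genes. Read by direction, 11.3% rose where 9.04% of all genes did, and 2.6% fell where 4.46% of all genes did. As a group the carriers were thus called about as often as other genes, and what follows concerns which carriers moved. The groups did not overlap in any of the 32 called genes, nor in 140 of the 231 Slc genes, or 60.6%, against 67.4% of all genes. In background in both groups lay 82 Slc genes, or 35.5% against 28.7% of all genes. Of these 82, 26 are among the 140 without overlap. This leaves 149 above it in at least 1 group. Measured from the top of background where 1 group lay in it, 23 of the 26 and 4 of the 6 were still at least 2-fold. The median difference over all 231 was -0.12, against -0.17 over all genes; with genes in background in both groups left out these were 0.09 and -0.16, so the sign of the Slc median depends on the genes in background. Scaling shifts that zero point: over all genes it became -0.33 after median centring and 0.00 after cyclic loess, so small differences below are to be read relative to it. The share of calls that were higher was 81.2% for Slc genes and 66.9% for all genes. With median centring these shares were 75.8% and 53.2%, and with cyclic loess 88.2% and 79.1%.

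**Figure D1:**
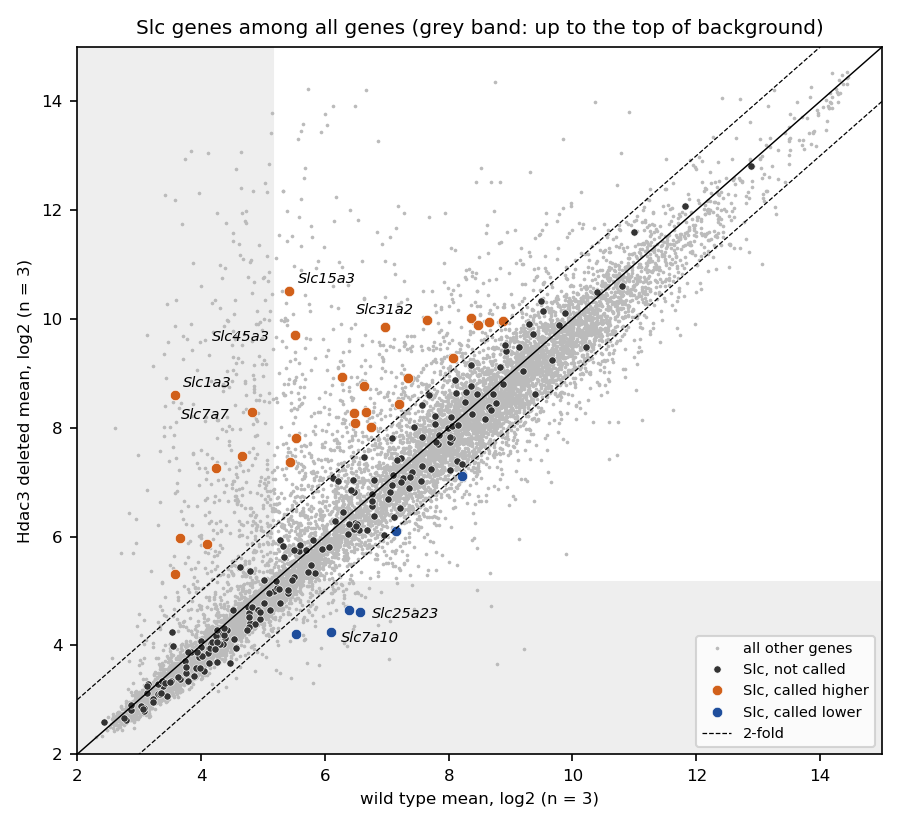
Mean log2 value in Hdac3 deleted samples (vertical axis) against wild type (horizontal axis), 3 samples each, for Slc genes and for all other genes (grey). The 26 Slc genes that rose lie above the upper dashed 2-fold line, with Slc15a3, Slc1a3, Slc45a3 and Slc7a7 farthest from the diagonal, and the 6 that fell lie below the lower one. The grey bands run up to the top of the background range.

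The peptide carrier Slc15a3 exports histidine and small peptides from lysosomes. Among the 231 Slc genes it had the largest difference of those above background in both groups, on the probe set that represents each gene. Its wild type values were 5.78, 5.04 and 5.47, and its Hdac3 deleted values were 10.53, 10.42 and 10.58. All 3 deleted samples lay far above the wild type ones (here and below, values before against are wild type and those after it Hdac3 deleted), and the mean went from 5.43 ± 0.372 to 10.5 ± 0.082, or 33.8-fold (difference 5.08, SE 0.175, limma adjusted p = 6.11e-07). Its plasma membrane relative Slc15a2, which takes up di- and tripeptides with protons, rose from 6.63 ± 0.288 to 8.77 ± 0.099 (2.14). The lysosomal relative Slc15a4 measured 7.55, 7.61 and 7.54 against 8.40, 8.44 and 8.43, a difference of 0.86 that passed the adjusted p (8.98e-06, limma) but not 2-fold. With cyclic loess Slc15a4 was called, at 1.03. The groups of all 3 genes were apart, while Slc15a1 and Slc15a5 lay in background. With the mean of its probe sets in place of the brightest, Slc15a2 differed by 1.28, since its second set lay in background.

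Slc1a3, the glutamate and aspartate transporter known from astrocytes, lay in background in wild type, at 3.66, 3.22 and 3.86, and reached 8.59, 8.72 and 8.48 once Hdac3 was deleted, at least 10.9-fold higher (difference 5.02, SE 0.161, limma adjusted p = 4.39e-07). Both other probe sets of this gene were also called higher, by 2.17 and 3.41, and the mean of its probe sets gave 3.54. Slc45a3, a prostate-rich carrier thought to move sugars, was read at 5.35, 5.78 and 5.41 against 9.53, 9.89 and 9.72. That is 18.4-fold (4.20, SE 0.139, limma adjusted p = 5.18e-07), and both of its probe sets can match several transcripts. Slc7a7, the light chain of a system that exchanges cationic for neutral amino acids, went from 4.59, 4.91 and 4.98 to 8.38, 8.16 and 8.30, at least 8.72-fold (3.46). None of these genes had overlapping groups, and the wild type samples lay in background or close to it in each.

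The windows around the annotated starts are shown here for the carriers with the largest measured differences, 3 that rose and 2 that fell, among those with an entry in the RefSeq promoter table (GRCm38.p6). Levels in background bound some of these differences only from below, so the order among them is not settled. Each window runs from 250 bases before the start to 50 bases after it. Capitals mark matches to the motifs searched on both strands: the GC box GGGCGG, the E-box CACGTG, a PU.1-type word GAGGAAGT, the AP-1 word TGANTCA and the TATA box TATAAA. Slc1a3 (chr15:8710758-8711057, minus strand), Slc45a3 (chr1:131962665-131962964, plus strand; the first of 2 windows) and Slc7a7 (chr14:54417895-54418194, minus strand; the first of 5) rose. Slc25a23 (chr17:57059814-57060113, minus strand; the first of 2) and Slc7a10 (chr7:35186135-35186434, plus strand), both described further on, fell.
Slc1a3: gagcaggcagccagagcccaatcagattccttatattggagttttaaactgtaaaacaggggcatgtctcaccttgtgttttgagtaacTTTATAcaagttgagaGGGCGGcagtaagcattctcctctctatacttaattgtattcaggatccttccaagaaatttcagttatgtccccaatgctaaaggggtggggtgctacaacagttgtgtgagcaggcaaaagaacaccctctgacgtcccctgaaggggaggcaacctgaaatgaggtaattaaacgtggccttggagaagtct
Slc45a3: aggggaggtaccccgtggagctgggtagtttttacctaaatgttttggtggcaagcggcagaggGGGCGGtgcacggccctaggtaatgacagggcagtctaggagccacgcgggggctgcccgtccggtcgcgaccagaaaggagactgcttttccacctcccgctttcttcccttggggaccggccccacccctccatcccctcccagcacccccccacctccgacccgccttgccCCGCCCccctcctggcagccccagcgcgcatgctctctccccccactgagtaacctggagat
Slc7a7: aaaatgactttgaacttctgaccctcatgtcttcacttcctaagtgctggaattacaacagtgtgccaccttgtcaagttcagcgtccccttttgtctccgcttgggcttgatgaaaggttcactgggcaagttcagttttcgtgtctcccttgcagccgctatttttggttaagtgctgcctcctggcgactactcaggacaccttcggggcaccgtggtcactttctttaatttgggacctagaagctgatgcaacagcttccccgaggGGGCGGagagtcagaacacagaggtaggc
Slc25a23: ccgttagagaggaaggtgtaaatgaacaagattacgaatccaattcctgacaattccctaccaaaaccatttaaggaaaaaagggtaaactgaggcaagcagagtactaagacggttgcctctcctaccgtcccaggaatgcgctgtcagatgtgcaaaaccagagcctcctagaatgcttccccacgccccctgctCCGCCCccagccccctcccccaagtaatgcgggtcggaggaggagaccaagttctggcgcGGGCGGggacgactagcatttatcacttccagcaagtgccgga
Slc7a10: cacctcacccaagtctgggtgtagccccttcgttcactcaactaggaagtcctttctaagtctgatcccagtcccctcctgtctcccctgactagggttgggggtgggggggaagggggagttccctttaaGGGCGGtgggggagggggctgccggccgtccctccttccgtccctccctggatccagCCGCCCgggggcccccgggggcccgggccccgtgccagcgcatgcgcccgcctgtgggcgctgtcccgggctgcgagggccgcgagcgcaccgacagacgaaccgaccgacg

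Each of these windows held the GC box. Those of Slc45a3, Slc25a23 and Slc7a10 held 2 matches each, and that of Slc7a7 had its match at position 22, with the annotated start as 1. The window of Slc1a3 held the GC box at -145 and, at -161, the TATA word on the other strand. Over all 32851 windows in the table the shares with a match were 35.7% for the GC box, 7.15% for the E-box, 3.2% for the PU.1-type word, 7.81% for the AP-1 word and 13.6% for the TATA box. Counted per gene with any window, the GC box was in 15 of 19 Slc genes that rose and 4 of 5 that fell, in 66.1% of 180 Slc genes with a window, and in 38.2% of all genes in the table. The E-box stood in windows of Slc12a9, Slc13a3, Slc30a5 and Slc31a2, 4 of the 19 that rose, against 15.6% of the Slc genes and 8.09% of all genes. The PU.1-type word was found in 1 of the 19 (Slc31a1), the AP-1 word in 1 (Slc37a2) and the TATA box in 2 (Slc1a3 and Slc45a3). Windows of the 5 that fell had no match to these or to the E-box. A match is a run of letters in these windows and says nothing of binding.

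Of 7 measured carriers of iron, copper, magnesium and heme, 4 rose and none fell, with both copper carriers among them, where 9.04% of all genes rose. Slc31a1, the copper importer of the plasma membrane, went from 5.79, 5.14 and 5.38 to 7.43, 7.50 and 7.20, a difference of 1.94 (SE 0.168, limma adjusted p = 5.8e-05). Slc31a2, its relative of endosomes and lysosomes, went from 6.77, 7.03 and 7.13 to 9.75, 9.96 and 9.85, a rise of 2.88. Second probe sets of both were also called higher, by 2.72 for Slc31a1 and 2.34 for Slc31a2. The genes are close neighbours on chromosome 4, with 1 coding gene between them in the RefSeq order. Slc48a1, which carries heme out of the lysosome, rose from 7.65 ± 0.017 to 9.99 ± 0.027, or 5.06-fold. The magnesium carrier Slc41a2 went from background (3.51, 3.60 and 3.61) to 5.21, 5.54 and 5.17, at least 1.11-fold higher, so its lower bound is small. Its relatives Slc41a1 and Slc41a3 differed by -0.43 and -0.47. Slc11a2, an iron and manganese importer, measured 7.17, 7.17 and 7.34 against 7.44, 7.50 and 7.41. That difference of 0.22 is far smaller than those of the copper and heme carriers, though its groups did not overlap.

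Among 41 members of the amino acid families 5 rose and 1 fell, while 20 lay in background in both groups. That is 14.6% called, close to the 13.5% of all genes. Slc7a8, a light chain that carries neutral amino acids, rose with Slc7a7, from 3.83, 4.36 and 4.55 to 7.15, 7.46 and 7.18, at least 4.31-fold. Both pair with the heavy chain Slc3a2, which measured 9.48, 9.56 and 9.54 against 10.15, 10.10 and 10.16, a difference of 0.61 below the 2-fold threshold. Other light chains of the same heavy chain gave other values. Slc7a6, the closest relative of Slc7a7, differed by -0.76 (8.12, 8.05 and 8.26 against 7.43, 7.33 and 7.39), and Slc7a5, the main leucine carrier of activated T cells, by 0.20. Slc7a10, a light chain for small neutral amino acids such as serine and alanine, fell from 6.002, 5.952 and 6.333 into background at 3.99, 4.26 and 4.50, at least 1.92-fold (-1.84, SE 0.153, limma adjusted p = 4.54e-05). The light chains thus ran both ways under 1 heavy chain, with no overlap between groups in Slc7a6, Slc7a7, Slc7a8 or Slc7a10.

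The other members of these families that rose carry other substrates in part. Slc43a3, known as a carrier of purine nucleobases, went from 6.67 ± 0.096 to 8.29 ± 0.125 (1.63). Slc6a6, the taurine transporter, rose from 8.64 ± 0.099 to 9.94 ± 0.069 (1.29) on its brightest probe set, but its other probe sets gave -0.21 and -0.19, neither past the adjusted p. The mean of its probe sets was 0.30 and was not called, so the rise of Slc6a6 rests on 1 probe set. Slc6a3 and Slc6a4, the dopamine and serotonin transporters, belong to the same family by number and lay in background.

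Slc1a5 and Slc38a2, carriers of glutamine and other neutral amino acids, were not called. Slc1a5 measured 9.42, 9.34 and 9.43 against 8.63, 8.63 and 8.61 (-0.77, limma adjusted p = 1.78e-05), and Slc38a2 differed by -0.74. The neighbour of Slc38a2 on chromosome 15, Slc38a1, had overlapping groups and a difference of -0.12 (limma adjusted p = 0.21), which turned to 0.06 with cyclic loess. Slc7a1 and Slc7a11, carriers of arginine and of cystine, lay in background in both groups.

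**Figure D2:**
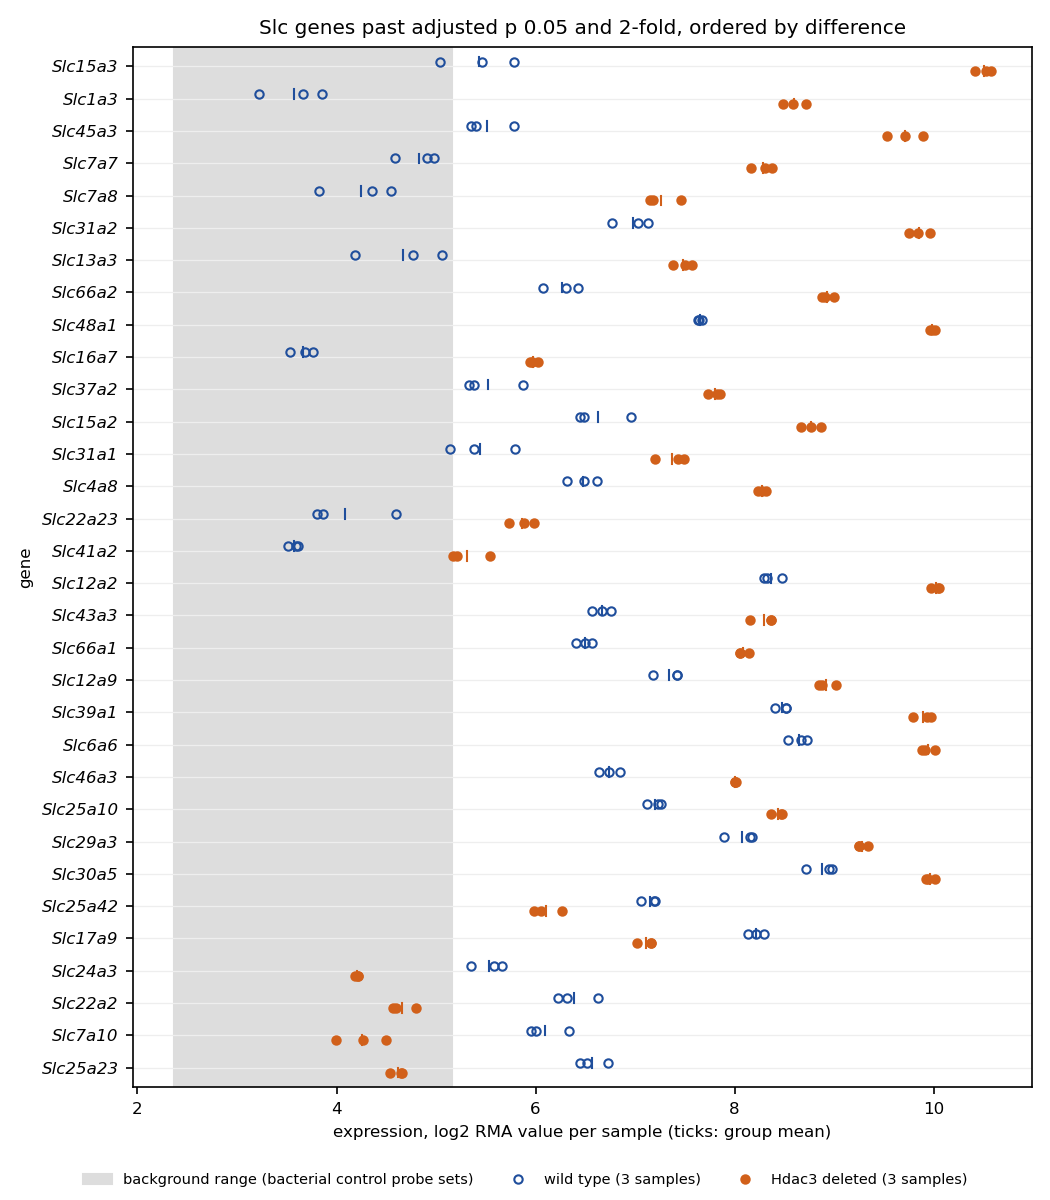
Log2 value in each wild type sample (open blue circles) and each Hdac3 deleted sample (filled orange circles) for the 32 called Slc genes, ordered by difference, with ticks at group means. The sets of circles do not overlap in any gene, and the grey band marks the background range of 2.37 to 5.16 in which 7 of the 26 that rose lay in wild type and 4 of the 6 that fell lay in Hdac3 deleted samples.

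Slc66a1, Slc29a3 and Slc46a3, from the families of lysosomal amino acid exporters, of nucleoside carriers and of the folate carrier, also rose. Slc66a1, which exports cationic amino acids from lysosomes, measured 6.50, 6.41 and 6.57 against 8.06, 8.06 and 8.14, a rise of 1.59. Slc66a2, a relative with the same repeat structure, rose by 2.66, from 6.27 ± 0.177 to 8.93 ± 0.065; the mean of its probe sets gave 1.42. Slc29a3, a nucleoside carrier of lysosomes, went from 7.89, 8.16 and 8.17 to 9.25, 9.25 and 9.34 (1.21), and its second probe set gave 1.38. Slc46a3, a lysosomal member of the family of the folate carrier Slc46a1, rose from 6.74 ± 0.104 to 8.01 ± 0.003 (1.26). The nucleoside importer of the plasma membrane, Slc29a1, measured 7.32, 7.46 and 7.54 against 8.02, 8.06 and 7.97, a difference of 0.58.

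Zinc carriers were all above background. Of 18 measured, 2 rose and none fell, or 11.1% called against 13.5% of all genes. Slc39a1, a zinc importer, went from 8.51, 8.51 and 8.41 to 9.79, 9.97 and 9.93 (1.42, SE 0.0687, limma adjusted p = 3.16e-06). Slc30a5, which loads zinc into the secretory pathway, went from 8.72, 8.95 and 8.97 to 9.94, 10.01 and 9.92 (1.08). That call lies close to the threshold: the difference was 0.92 with median centring and 0.997 without wild type replicate 1. Other zinc carriers gave smaller differences of both signs. Slc30a1, the exporter of the plasma membrane, differed by 0.59 and Slc39a7, which releases zinc from the endoplasmic reticulum, by 0.61. Slc30a4 and Slc39a3 differed by -0.93 and -0.76, with no overlap between groups, and Slc30a4 was called lower with median centring (-1.09). A second probe set of Slc39a3 gave 0.28 and also passed the adjusted p, so the sets of that gene disagree in sign.

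Carriers of organic acids and of sugars showed single members that rose beside relatives that were not called. The monocarboxylate carrier Slc16a7, with high affinity for pyruvate, went from background (3.68, 3.54 and 3.77) to 6.03, 5.96 and 5.94, at least 1.77-fold. Slc16a1, the widespread lactate carrier, measured 8.28, 8.39 and 8.43 against 9.16, 9.26 and 9.05, a difference of 0.79. Slc16a6, which carries ketone bodies, differed by 0.92 and was called with cyclic loess (1.10). Slc13a3, which takes up dicarboxylates such as succinate with sodium, rose from background at 4.18, 5.06 and 4.77 to 7.38, 7.50 and 7.57, at least 5.03-fold. Another of its probe sets was also called higher (2.94), but 2 more lay in background and the mean of all gave 1.30. Slc37a2, a sugar phosphate exchanger of the endoplasmic reticulum, rose from 5.53 ± 0.298 to 7.81 ± 0.062 (2.28). Its relatives Slc37a3 and Slc37a4 differed by -0.46 and 0.44. Of 18 members of the sugar families Slc45a3 alone was called, or 5.56% against 13.5% of all genes. The intracellular hexose carrier Slc2a8 went from 7.08 ± 0.023 to 7.81 ± 0.163, a difference of 0.74. These sugar families also hold carriers of iodide, choline and vitamins, such as Slc5a5, Slc5a7 and Slc5a6, all of them uncalled.

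Ion cotransporters and exchangers were called in both directions. Slc12a2, the sodium, potassium and chloride cotransporter of most cells, rose from 8.30, 8.33 and 8.47 to 10.05, 10.04 and 9.97 (1.66, SE 0.0656, limma adjusted p = 1.2e-06), and both of its other probe sets were called higher, by 1.37 and 1.005. Slc12a9, a relative whose transport is less well known, measured 7.42, 7.43 and 7.18 against 8.85, 9.02 and 8.88 (1.57). Of 8 cation chloride cotransporters these 2 rose and none fell, or 25% called against 13.5% of all genes. Slc12a7, which exports potassium and chloride, differed by 0.61. Slc4a8, which exchanges chloride for sodium and bicarbonate, rose from 6.47 ± 0.148 to 8.27 ± 0.043 (1.80), but was not called on the mean of its probe sets (0.83), since its second set lay in background. Slc24a3, which exports calcium in exchange for sodium, fell from 5.35, 5.58 and 5.67 into background at 4.21, 4.22 and 4.19, at least 1.30-fold. Organic ion carriers ran both ways. Slc22a23, a member with no settled substrate, rose from background to 5.87 ± 0.126, at least 1.64-fold. Slc22a2, a cation carrier best known from kidney, fell from 6.39 ± 0.210 into background at 4.65 ± 0.129, at least 2.35-fold. The carnitine carrier Slc22a5 was not called (-0.31).

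Of 33 mitochondrial carriers measured 32 lay above background in at least 1 group, 1 rose and 2 fell, or 9.09% called against 13.5% of all genes. Slc25a23, which exchanges ATP with magnesium for phosphate and is regulated by calcium, fell from 6.44, 6.73 and 6.52 into background at 4.66, 4.65 and 4.54, at least 2.66-fold (-1.95, SE 0.0873, limma adjusted p = 2.17e-06). Its relatives Slc25a24 and Slc25a25, carriers of the same exchange, differed by -0.51, with the Hdac3 deleted samples in background, and by -0.22. Slc25a42, which brings coenzyme A into mitochondria, measured 7.05, 7.20 and 7.19 against 6.05, 5.98 and 6.27 (-1.05). It missed the 2-fold threshold with cyclic loess (-0.87) and without Hdac3 deleted replicate 2 (-0.99). Slc25a10, the dicarboxylate carrier, rose from 7.20 ± 0.076 to 8.43 ± 0.062 (1.23). Its second probe set differed by 0.84. Slc25a26 and Slc25a36, carriers of S-adenosylmethionine and of pyrimidine nucleotides, differed by 0.94 and 0.84 and were called with cyclic loess, at 1.12 and 1.04. Their second probe sets, above background, gave only 0.32 for Slc25a26 and -0.0036 for Slc25a36. Slc25a30, a mitochondrial carrier of less certain substrate, differed by -0.89 and was called lower with median centring (-1.05). Slc25a5, the main ADP/ATP carrier of dividing cells, measured 12.86, 12.93 and 12.86 against 12.83, 12.82 and 12.79, a difference of -0.07 (limma adjusted p = 0.287) that turned to 0.16 with cyclic loess. The groups of Slc25a5 did not overlap, but the gap is smaller than the shift that scaling gives. Slc17a9, which loads nucleotides into vesicles for release, fell from 8.21, 8.29 and 8.13 to 7.16, 7.16 and 7.02 (-1.10), and was not called with cyclic loess (-0.93).

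**Figure D3:**
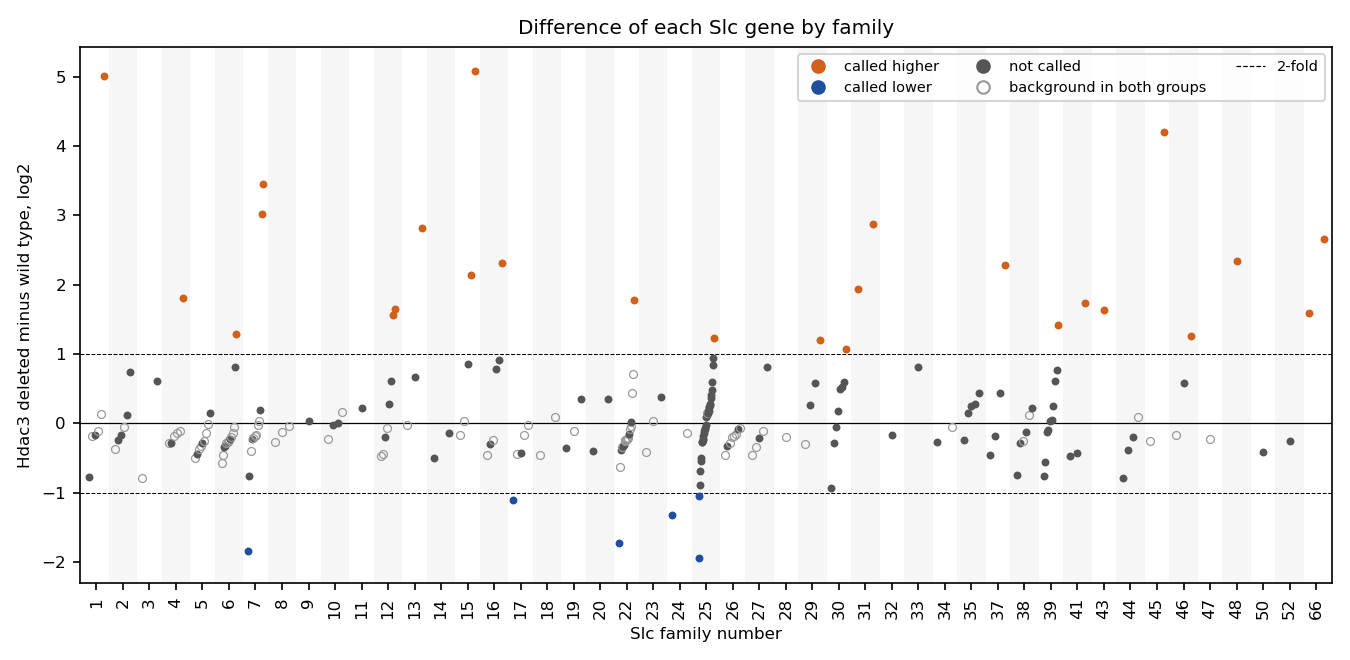
Difference in log2 (Hdac3 deleted minus wild type) of each of the 231 Slc genes, by family number. Called genes lie beyond the dashed 2-fold lines and come from 23 of the 47 families, while open circles mark the 82 genes in background in both groups; family 25, the mitochondrial carriers, forms a dense column between the lines.

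**Figure D4:**
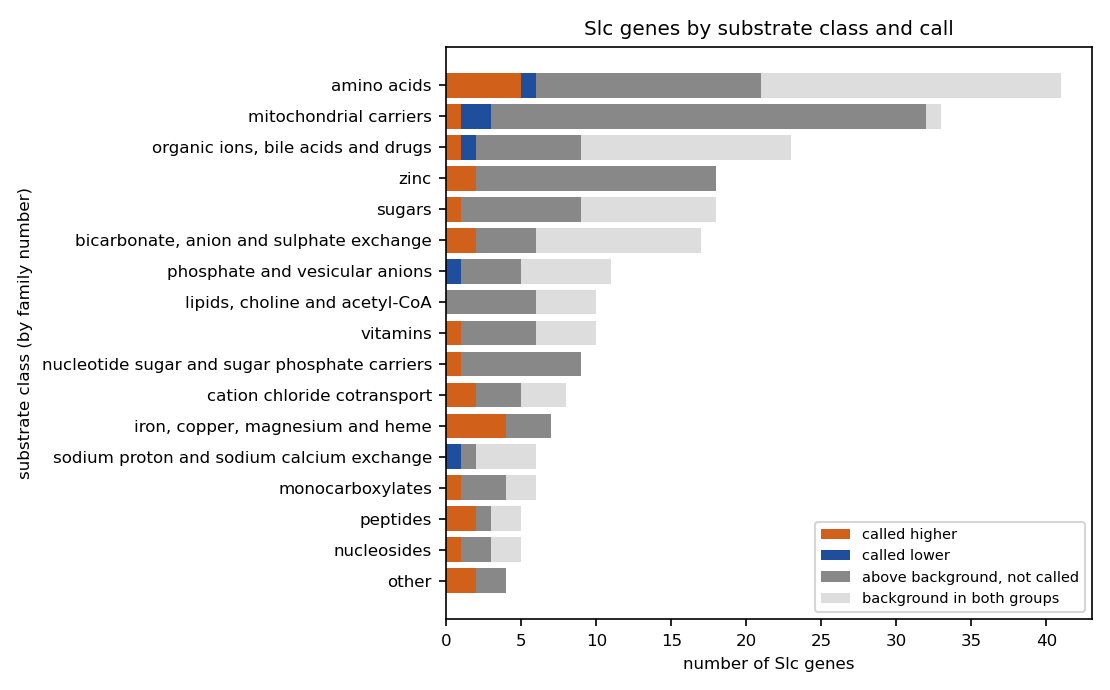
Number of Slc genes in each substrate class, assigned by family number, split into called higher, called lower, above background but not called, and background in both groups. Metal and heme carriers hold 4 calls among 7 genes, all higher, while the mitochondrial class holds 3 among 33, and the lipid, choline and acetyl-CoA class holds none among 10; over all genes 13.5% were called.

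In the class of lipid, choline and acetyl-CoA carriers 0 of 10 were called by limma with 2-fold (13.5% of all genes were), while 6 passed the adjusted p alone (61.2% of all genes did), 2 with positive and 4 with negative differences. Slc33a1, which carries acetyl-CoA into the endoplasmic reticulum, differed by 0.82, the fatty acid carrier Slc27a1 by 0.81, and the choline carrier Slc44a1 by -0.79. Over all 231 Slc genes 128 passed the adjusted p, or 55.4% against 61.2% of all genes. Of these, 25 lay in background in both groups, where no direction can be read. The others, above background, had positive differences in 65 and negative ones in 38. For all genes, background included, 22.4% passed with a positive and 38.8% with a negative difference, and for Slc genes counted that way the numbers were 68 and 60.

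Transporters that are known to serve activated T cells or phagocytes were followed whatever their values. Among 14 of them that were not called, 12 lay above background, and their differences ran from -0.77 for Slc1a5 to 0.79 for Slc16a1. Slc20a1, a sodium-driven phosphate importer, measured 9.13, 9.11 and 9.16 against 9.49, 9.49 and 9.47 (0.35). The members that were called were Slc7a7, Slc15a3, Slc12a2 and Slc29a3, each higher. Over the same samples the CD3 genes fell by 1.21 to 1.59.

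**Figure D5:**
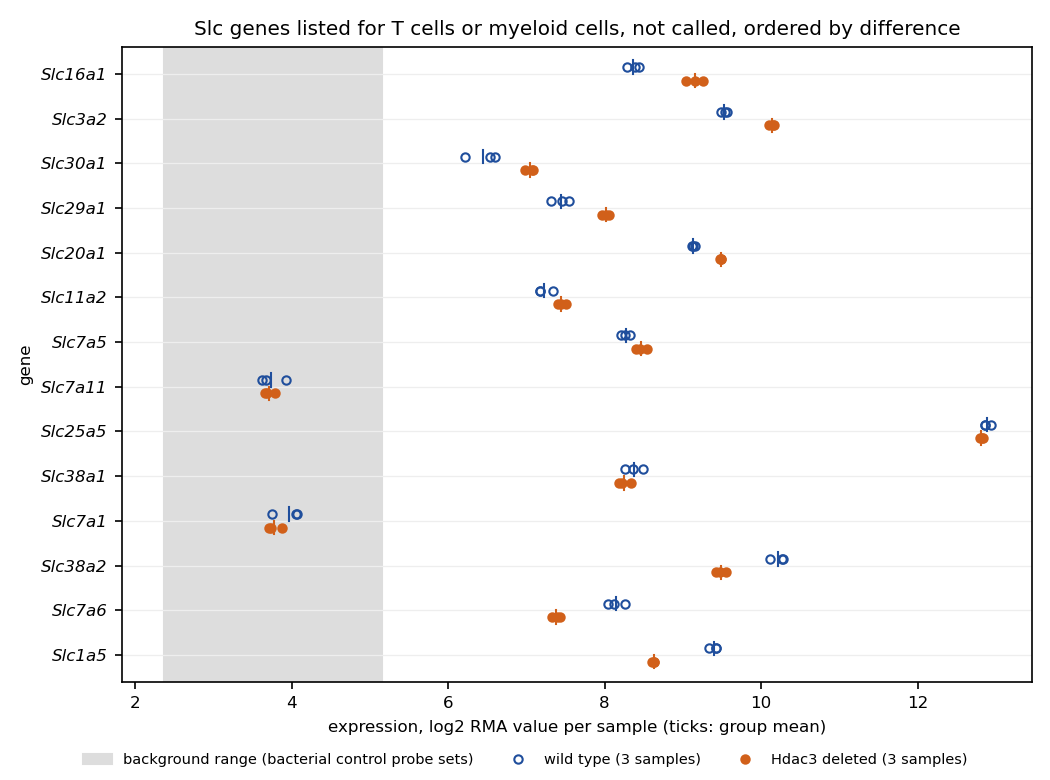
Log2 value in each wild type sample (open blue circles) and each Hdac3 deleted sample (filled orange circles) for 14 transporters known from activated T cells or myeloid cells that were not called, ordered by difference, with ticks at group means. Slc16a1, Slc3a2, Slc30a1 and Slc29a1 sit higher in the Hdac3 deleted samples and Slc38a2, Slc7a6 and Slc1a5 lower, each by less than 2-fold, and Slc7a1 and Slc7a11 stay within the grey background band.

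Second probe sets gave a further reading of some members. The called genes had 19, of which 14 (from 11 genes) lay above background in a group; 12 of the 14 had the same sign as the representative and 11 were also called in that direction. Those of opposite sign were both of Slc6a6. In Slc45a3 the second set gave 5.60 against 4.20, and in Slc48a1 2.66 against 2.34. One gene was called on a second probe set only: Slc14a1, a urea carrier, gave -1.10 there and -0.14 on its representative. The median SD within groups over the 149 genes above background was 0.096 in wild type, against 0.078 with Hdac3 deleted. Single genes were wider, up to 0.446 in wild type and 0.366 with Hdac3 deleted. The calls on second probe sets use p-values adjusted over all probe sets. Where a second set had its wild type values in background (Slc1a3, Slc13a3, Slc31a1 and Slc45a3), its difference is given as measured, with no bound.

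Of the 7 Slc genes left out by the rule, the iron exporter Slc40a1 and the phagosomal metal carrier Slc11a1 rose by 6.43 and 6.06 and the lactate exporter Slc16a3 at least 2.99-fold, while Slc2a1, Slc2a3 and Slc4a1 were not called (0.95, -0.60 and 0.75) and Slc7a2 lay in background. From a list of 41 measured pumps, channels and partners of solute carriers 7 rose and 2 fell, or 22% called against 13.5% of all genes. Those that rose were the copper pump Atp7a (2.30), the transferrin receptor Tfrc (2.06), the cholesterol exporters Abca1 (2.45) and Abcg1 (1.58), Mfsd1 (1.18), Mfsd10 (1.12) and Leprot (1.54). Atp7a measured 7.29, 7.19 and 7.37 against 9.54, 9.65 and 9.55, beside the rises of the copper carriers Slc31a1 and Slc31a2. Atp1b1, a subunit of the sodium and potassium pump, fell by 1.62, and the water and glycerol channel Aqp3 fell at least 1.96-fold.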

How the data were processed

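The deposited table holds log2 expression per probe set, made by the authors with robust multiarray average (RMA) normalization in MAYDAY 2.12, per the labels. RMA is meant to give all arrays a common distribution, but the deposited sample medians differed between the groups. They were 6.28 to 6.29 in wild type and 6.43 to 6.47 with Hdac3 deleted. The source of this offset was not tested, and a change in total RNA cannot be read from these values. Groups came from the sample titles. Of 22690 probe sets, 64 controls were left out, and 20380 of the other 22626 had 1 symbol in the platform annotation. Each gene was represented by its probe set with the highest mean. The two-sided test was limma 3.58.1 (lmFit, eBayes; R 4.3.3) over 12393 genes, adjusted by Benjamini-Hochberg, in place of the authors' Student's test; a call needs adjusted p 0.05 and 2-fold. The number of arrays limits the precision. All 231 Slc genes matched the RefSeq table (GRCm38.p6) by Entrez identifier.

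Members and lists were chosen with earlier results of these data known. Substrate classes follow family numbers. Named were all called members, in each family of 5 or more the most changed and the brightest, and known transporters of T and myeloid cells, whatever their values; genes outside this rule, among them Slc25a24, Slc25a25, Slc25a26, Slc25a36, Slc33a1, Slc37a3, Slc37a4, Slc41a1, Slc41a3, Slc44a1, Slc6a4, Slc5a5, Slc5a6, Slc5a7, Slc14a1, Slc15a1, Slc16a6 and Slc25a30, were named after their values were seen. Slc4a7 and Slc39a10 of those transporters were not analysed here. The fit was tested on simulated data of 12393 genes, with 50 changed at each size and scored by adjusted p below 0.05 alone. It found 56% of true changes of 0.5 log2, 92% of those of 1 and 100% of those of 2 or 4. In addition 11 unchanged genes passed. The 2-fold threshold was not applied there, so these shares do not give the recovery of calls. A far larger share of genes, 61.2%, passed in the data than was changed in the simulation. Alternatives were the methods' t-test, a replicate block, median centring, cyclic loess, leaving out dim genes, averaging all probe sets of a gene, leaving out probe sets that match several transcripts, a trended robust prior, a 1.5-fold threshold and leaving out each sample. Plots used Python 3.11.15, pandas 2.3.3 and matplotlib 3.10.9.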

Additional observations from a re-analysis of the deposited data

How the results depend on the processing

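Of the 32 called Slc genes 27 kept call and direction under every alternative that measured them, 23 higher and 4 lower; the exceptions are given in the text above. Slc45a3 could not be read without probe sets that match several transcripts, and Slc16a7, Slc22a23, Slc24a3 and Slc41a2 were among the dim genes left out. The median difference over Slc genes was -0.12, and moved to -0.28 with median centring, 0.047 with cyclic loess and 0.073 without dim genes. With a 1.5-fold threshold 43 rose and 16 fell, and with the 7 left-out genes added 29 rose and 6 fell. Leaving out 1 sample at a time gave 25 to 26 that rose, 5 to 6 that fell and a median of -0.15 to -0.09. The methods' t-test called 26 and 6 Slc genes, and 1118 and 553 of all genes. Differences near zero changed sign, none of them called. With cyclic loess Slc17a6 was 0.11, Slc25a5 0.16, Slc26a2 0.10, Slc26a3 0.095, Slc38a1 0.056 and Slc7a11 0.13. With the mean of probe sets Slc26a2 was 0.012 and Slc38a10 -0.13, with median centring Slc5a11 was -0.016, and without probe sets that match several transcripts Slc25a5 was 0.040. Leaving out 1 sample at a time, Slc17a6 ranged from -0.11 to 0.027 (positive without Hdac3 deleted replicate 3), Slc26a3 from -0.16 to 0.027 and Slc7a11 from -0.088 to 0.064 (both positive without wild type replicate 1). The cause was not tested.

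The replicate numbers gave no sign of pairing: the deviations of same-numbered samples from their group means correlated at 0.089, 0.065 and -0.20. Samples of unlike number correlated at -0.25 to 0.22. So few values cannot exclude a pairing, under these numbers or others. A fit with a replicate block gave no other calls: 26 Slc genes rose and 6 fell, and the median difference stayed at -0.12. Signals within the background range, where 82 of the 231 Slc genes lay in both groups, give no readable direction.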
